A study of Homo sapiens with 8 samples.

Results

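The BCL2 family decides whether mitochondria release the factors that start programmed cell death, and its transcripts were measured in a breast cancer cell line kept at low or high glucose. The members were the rows of the deposited table whose gene symbol was 1 of 10: BCL2, BCL2L1, MCL1, BCL2A1, BAX, BAK1, BID, BIK, BMF and BCL2L11. Of the 10 symbols, 9 had a row among the 21059 genes of the table, and BCL2A1 was not analysed here. MDA-MB-157, an established human breast cancer line without the estrogen receptor, was cultured without serum for 48 hours. The glucose concentration was 5 mM in 4 libraries, called low glucose, and 25 mM in the other 4, called high glucose. RNA was sequenced on an Illumina HiSeq. All 8 libraries come from 1 line, the sources used here name no library with an added osmotic control, and they do not say whether replicates were separate experiments. The p-values therefore measure the spread between these libraries, which may be technical. The comparison asks which transcripts of the family change between a glucose level like that of normal blood and a diabetes-like level.

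Proteins of the family act at the outer mitochondrial membrane. The prosurvival members (BCL2, BCL-xL encoded by BCL2L1, MCL1 and BCL2A1) hold the effectors BAX and BAK1 in check. When BAX and BAK1 are released they form pores through which cytochrome c leaves the mitochondrion, and caspases are activated. The BH3-only members (BID, BIK, BMF and BIM, the product of BCL2L11) sense stress, and they bind the prosurvival members or activate the effectors. Many of these proteins are controlled after transcription, by splicing, cleavage or turnover. Gene-level values do not separate the long and short splice forms of BCL2L1, MCL1 or BCL2L11, which can act in opposite ways or with different strength, and no protein was measured.

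Values are counts per 1000000 reads scaled by trimmed mean of M values (TMM), hereafter CPM. Each library had an estimated 9721637 to 12482546 reads in the table, and 3 reads corresponded to 0.212 to 0.267 CPM. ESR1, which encodes the estrogen receptor, was at 0 to 0.170 CPM, and PTPRC, a marker of blood cells, was at 0 to 0.178 CPM. The progesterone receptor gene PGR was not near 0, at 4.33 to 5.95 CPM. The mesenchymal marker VIM was at 4060 to 4116 CPM at low glucose and 2856 to 3282 CPM at high glucose. Of the epithelial markers, KRT8 (126 to 138 CPM at low glucose, 76.4 to 101 at high glucose) and KRT18 (228 to 238 and 156 to 196 CPM) were lower at high glucose, and EPCAM was higher (3.93 to 4.93 and 6.58 to 7.62 CPM). None of the 3 overlapped between the groups (limma, adjusted p = 0.00117, 0.00149 and 0.00104). Of 4 measured markers of other cells, CD14 (0.801 to 1.58 CPM at low glucose, 2.76 to 5.79 at high glucose) and PECAM1 (0.911 to 1.24 and 1.51 to 2.84 CPM) were higher at high glucose, CDH5 was lower (0.0849 to 0.364 and 0 to 0.0825 CPM), and their part in the results was not tested. High glucose replicate 1 stood apart along transcript length: the Spearman correlation, over 11223 genes, between transcript length and the difference of a library from its group mean was -0.65 in that library. It was 0.25 to 0.47 in the other high glucose libraries and -0.13 to 0.06 in the low glucose libraries. In bulk RNA, fewer cells of a type and less RNA per cell cannot be told apart.

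Differences were tested with limma on log2(CPM + 1), with Benjamini-Hochberg adjustment over all 21059 genes and a threshold of 0.05. Of the 9 measured members, 7 passed. BCL2L1, MCL1, BAK1, BID and BCL2L11 were higher at high glucose, BAX and BMF were lower, and BCL2 and BIK did not pass. Across the table, 46.8% of all genes passed, 22.0% higher and 24.8% lower at high glucose. Among genes with a mean of at least 5 CPM, 66.9% passed and 65.0% had groups that did not overlap, beside 7 of the 8 members at that level for both counts. The median absolute log2 change was 0.37 for those 8 members and 0.35 for all 11297 such genes. The members therefore changed by amounts that were ordinary for this comparison, and what follows describes which of them moved and in which direction.

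**Figure D1:**
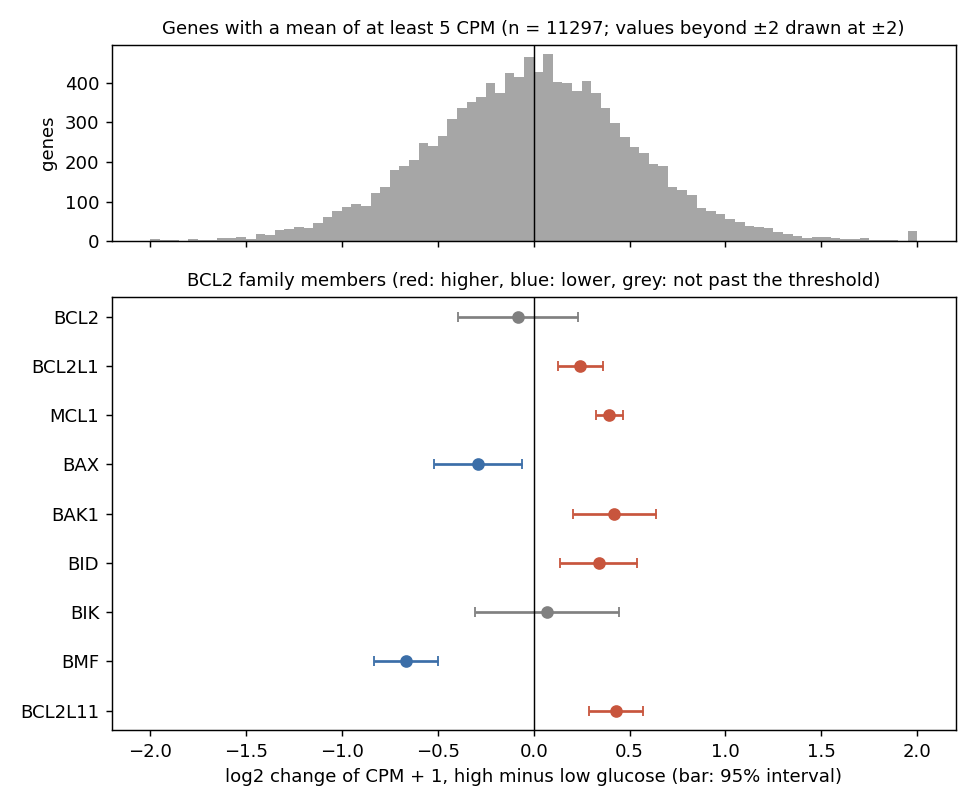
The upper panel is a histogram of the log2 change of CPM + 1, high minus low glucose, for the 11297 genes with a mean of at least 5 CPM. The lower panel shows the same quantity for the 9 measured members, with points for the estimate and bars for its 95% interval: the intervals of 5 members lie above 0, those of BAX and BMF below 0, and those of BCL2 and BIK span 0.

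The sequence before the start of transcription is shown for 3 members. BMF and BCL2L11 had the largest changes in either direction, and BAX was chosen after its sequence was seen. The sequences are the 250 bases upstream of the start, from RefSeq on GRCh38.p14, and 8 of the 10 symbols had an entry, the exceptions being MCL1 and BIK. Capitals mark matches on either strand to CACGTG, an E-box to which MYC and related factors can bind, or to GTAAACA, a forkhead motif. An AP-1 site, TGANTCA, and a GC box, GGGCGG, were also searched for and are not marked.
BMF, chr15:40108880-40109129, minus strand: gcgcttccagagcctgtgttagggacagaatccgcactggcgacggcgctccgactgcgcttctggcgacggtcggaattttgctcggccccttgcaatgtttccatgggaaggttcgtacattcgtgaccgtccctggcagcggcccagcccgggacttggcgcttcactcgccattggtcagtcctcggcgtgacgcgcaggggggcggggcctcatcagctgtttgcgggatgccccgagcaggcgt
BCL2L11, chr2:111120664-111120913, plus strand: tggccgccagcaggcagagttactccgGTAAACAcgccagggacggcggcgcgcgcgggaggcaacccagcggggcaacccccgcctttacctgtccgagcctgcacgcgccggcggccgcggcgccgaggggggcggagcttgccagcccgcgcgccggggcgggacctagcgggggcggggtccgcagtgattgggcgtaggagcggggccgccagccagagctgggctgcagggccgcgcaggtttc
BAX, chr19:48954625-48954874, plus strand: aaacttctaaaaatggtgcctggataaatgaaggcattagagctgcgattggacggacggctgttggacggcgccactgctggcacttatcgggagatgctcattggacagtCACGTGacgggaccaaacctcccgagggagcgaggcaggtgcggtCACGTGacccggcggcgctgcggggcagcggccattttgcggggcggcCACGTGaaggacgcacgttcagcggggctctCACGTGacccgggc
The BAX sequence held 4 matches to CACGTG, which begin 138, 93, 45 and 14 bases before the start. Of the 5 BID windows, 2 that overlap held 1 match each, at 106 and 47 bases before their own starts, and the other windows of members with an entry held none. Of 35116 such sequences in RefSeq, 6.34% held at least 1 match and 5 held at least 4. The BCL2L11 sequence held 1 match to GTAAACA, 223 bases before the start, as did 2.98% of all sequences. The BMF sequence held no match to CACGTG or GTAAACA, which says only that these letters are not in this window. None of the 3 sequences held the AP-1 site. The GC box matched 1 time in the BMF window shown, 3 times in BCL2L11 and 1 time in BAX. Another BMF window, chr15:40106967-40107216, is not shown and held no match to any of the motifs searched for. Of all sequences, 42.6% held at least 1 GC box and 13.9% at least 3. No binding was measured.

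Among the prosurvival members, the transcripts of MCL1 and BCL2L1 were higher at high glucose and that of BCL2 did not pass the test. MCL1 (ENSG00000143384.13, chromosome 1, 150574558 to 150579610) encodes a short-lived protein that binds BIM and BAK1. It was at 308, 292, 295 and 288 CPM in the low glucose libraries and at 404, 378, 386 and 390 CPM in the high glucose libraries. Every high glucose library lay above every low glucose library. The mean went from 296 ± 8.32 to 390 ± 10.8 CPM (SD, n = 4), a log2 change of 0.40 ± 0.03 (SE) with an adjusted p of 4.26e-05 from limma. It was the most precise of the members, since its interval of 0.33 to 0.46 was the narrowest.

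BCL2L1 (ENSG00000171552.13, chromosome 20, 31664452 to 31723963) encodes BCL-xL and the short form BCL-xS. It was at 41.4, 38.7, 43.3 and 40.9 CPM at low glucose and at 51.1, 45.5, 51.3 and 47.5 CPM at high glucose. The groups did not overlap, though the gap between them was small, from 43.3 to 45.5 CPM. The log2 change was 0.24 ± 0.05 (SE; limma, adjusted p = 0.00578), a rise of 19.0% in the mean. On the opposite strand, ABALON shares 945 exon bases with BCL2L1. It was at 1.40 to 2.52 CPM in all 8 libraries and its change did not pass the test (limma, adjusted p = 0.578).

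BCL2 (ENSG00000171791.13, chromosome 18, 63123346 to 63320090), the founding member of the family, was at 7.58, 5.88, 8.41 and 8.30 CPM at low glucose. At high glucose it was at 6.49, 7.65, 6.02 and 8.09 CPM. The groups overlapped throughout, and the 95% interval of the log2 change ran from -0.39 to 0.23 (limma, adjusted p = 0.675). These libraries leave the direction of the change undetermined within that interval.

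**Figure D2:**
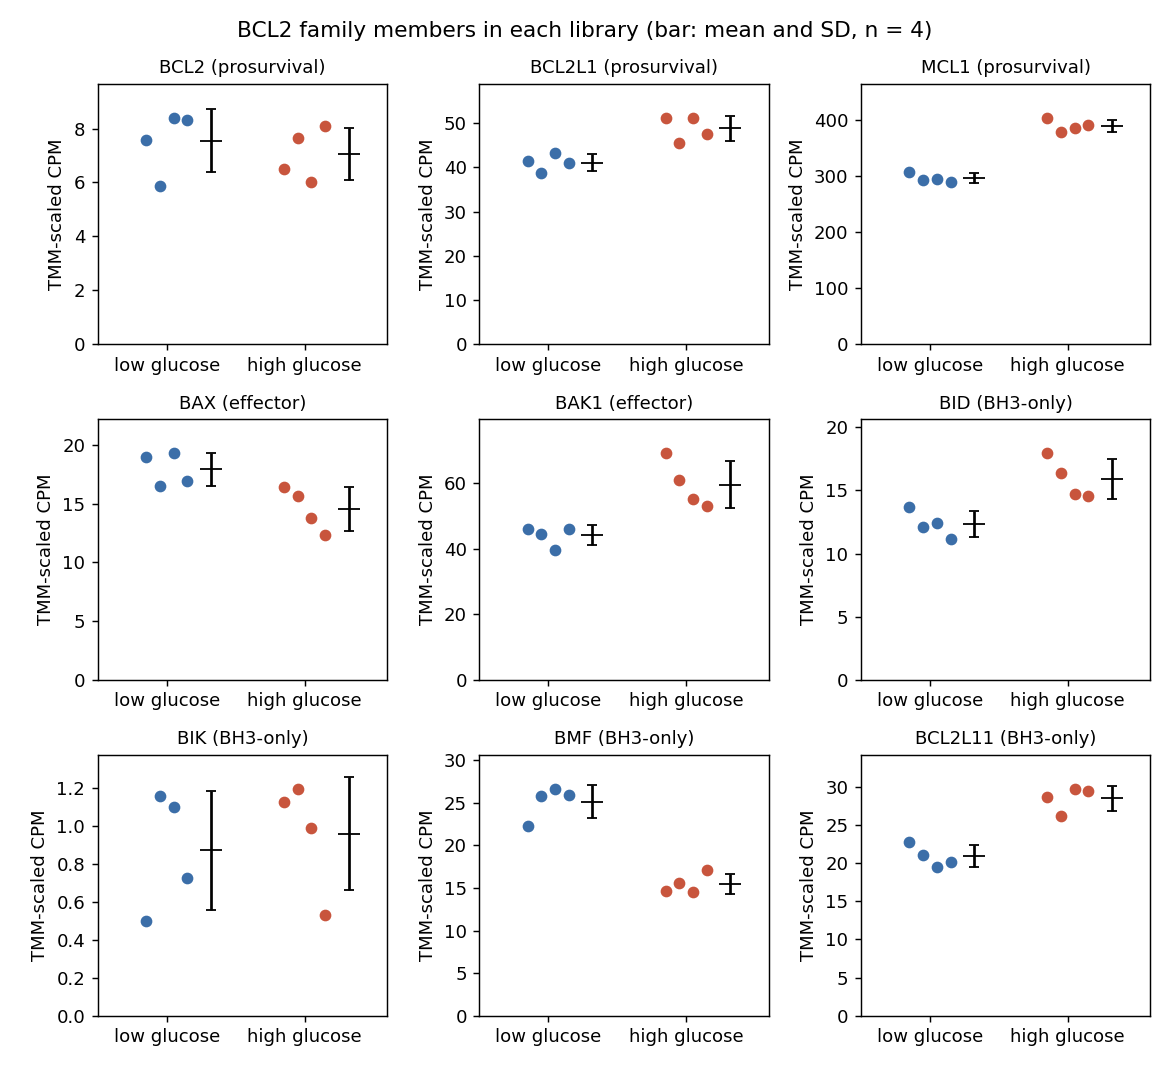
Each panel shows 1 member, with TMM-scaled CPM from 0 on the vertical axis, 1 point per library and a bar for the mean and SD (n = 4). The groups do not overlap for BCL2L1, MCL1, BAX, BAK1, BID, BMF and BCL2L11, and they overlap for BCL2 and BIK.

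Of the effectors, BAK1 was higher and BAX lower at high glucose, and the BAX call was fragile. BAK1 (ENSG00000030110.13, chromosome 6, 33572552 to 33580276) encodes BAK, which resides in the outer membrane. It was at 46.1, 44.6, 39.6 and 46.0 CPM at low glucose and at 69.0, 61.1, 55.0 and 53.0 CPM at high glucose. All high glucose libraries were above the low glucose libraries, and replicate 1 was the highest of them. The log2 change was 0.42 ± 0.09 (SE; limma, adjusted p = 0.00762), and without high glucose replicate 1 it was 0.35 (adjusted p = 0.00855). Of the 31-base words of the BAK1 transcript, 17.4% also occur in its pseudogenes BAK1P1 and BAK1P2, so reads in these stretches may have been split or misplaced. GGNBP1, which shares 91 exon bases on the opposite strand, was not analysed here.

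BAX (ENSG00000087088.20, chromosome 19, 48954875 to 48961798) encodes an effector that moves from the cytosol to the membrane. It was at 19.0, 16.5, 19.3 and 17.0 CPM at low glucose and at 16.4, 15.6, 13.8 and 12.4 CPM at high glucose. The groups touched without crossing, with 16.5 CPM in the lowest low glucose library and 16.4 CPM in the highest high glucose library. The log2 change was -0.29 ± 0.10 (SE; limma, adjusted p = 0.0447), and the mean fell by 18.9%. The direction was the same in all 15 alternatives, some of which cannot change the estimate, but the call was kept in 5 of them. Leaving out 1 library at a time ended it in 7 of 8 fits, with adjusted p-values from limma of 0.0237 to 0.109 over the 8, and kept only without high glucose replicate 1. It was also lost with median-of-ratios scaling (0.0684) and with equal totals (0.0559).

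Of the 4 BH3-only members, BID and BCL2L11 were higher, BMF was lower and BIK did not pass. BCL2L11 (ENSG00000153094.23, chromosome 2, 111120914 to 111168445) encodes BIM, which binds all prosurvival members. It was at 22.8, 21.1, 19.5 and 20.2 CPM at low glucose and at 28.7, 26.2, 29.7 and 29.5 CPM at high glucose. The groups were well apart, with a log2 change of 0.43 ± 0.06 (SE; limma, adjusted p = 0.000864). On the opposite strand, the long noncoding RNA MIR4435-2HG shares 727 exon bases with the BCL2L11 transcript of 5098 bases. MIR4435-2HG was also higher, at 54.7 to 62.8 CPM at low glucose and 88.3 to 116 CPM at high glucose (log2 change 0.70 ± 0.09 SE; limma, adjusted p = 0.000757). Whether strand was used in counting is not stated in the sources used here, and the part of MIR4435-2HG reads in the BCL2L11 value was not tested.

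BMF (ENSG00000104081.14, chromosome 15, 40087890 to 40108879) encodes a BH3-only protein known from cells that lose attachment. It was at 22.3, 25.8, 26.6 and 25.9 CPM at low glucose and at 14.7, 15.5, 14.6 and 17.1 CPM at high glucose. No library came near the other group, and BMF had the largest change of the members: a log2 change of -0.67 ± 0.07 (SE; limma, adjusted p = 0.000257), and the mean fell by 38.5%. Of the genes with at least 5 CPM, 21.0% changed by at least as much in either direction, so the size was not rare. BMF-AS1, which shares 461 exon bases on the opposite strand, was not analysed here.

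BID (ENSG00000015475.18, chromosome 22, 17734138 to 17774665) encodes the protein that caspase 8 cleaves to link death receptors to mitochondria. It was at 13.7, 12.1, 12.4 and 11.1 CPM at low glucose and at 17.9, 16.3, 14.7 and 14.6 CPM at high glucose. The groups did not overlap, and high glucose replicate 1 was again the highest. The log2 change was 0.34 ± 0.08 (SE; limma, adjusted p = 0.0138), and 0.28 without that library (adjusted p = 0.0237).

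BIK (ENSG00000100290.3, chromosome 22, 43110750 to 43129712), which encodes a BH3-only protein of the endoplasmic reticulum, had the lowest CPM of the members before division by transcript length. Its values of 0.50, 1.16, 1.10 and 0.728 CPM at low glucose and 1.13, 1.20, 0.990 and 0.533 CPM at high glucose rested on 6 to 16 estimated reads per library. The groups overlapped throughout. The 95% interval of the log2 change, -0.31 to 0.45, left its direction undetermined at this depth (limma, adjusted p = 0.781).

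Levels of different members were set beside each other as CPM per kilobase of the canonical transcript. At low glucose the order was MCL1 (74.9 ± 2.11 CPM per kilobase, SD, n = 4), BAX (22.6 ± 1.78), BAK1 (20.3 ± 1.42), BCL2L1 (16.0 ± 0.742), BID (5.66 ± 0.479), BMF (5.36 ± 0.416), BCL2L11 (4.10 ± 0.280), BCL2 (1.10 ± 0.170) and BIK (0.918 ± 0.330). MCL1 was the most abundant member in every library. The ranges of the neighbours BAX and BAK1, BID and BMF, and BCL2 and BIK overlapped, so their order was not resolved. At high glucose MCL1 was at 98.6 ± 2.74 and BAK1 at 27.4 ± 3.32 CPM per kilobase, followed by BCL2L1 (19.0 ± 1.09), BAX (18.3 ± 2.32), BID (7.30 ± 0.729), BCL2L11 (5.59 ± 0.316), BMF (3.30 ± 0.245), BCL2 (1.03 ± 0.141) and BIK (1.01 ± 0.314). The ranges of BCL2L1 and BAX, and of BCL2 and BIK, overlapped. BMF lay above BCL2L11 at low glucose and below it at high glucose, with no overlap in either group on this scale. Before division by length, their ranges at low glucose did overlap, at 22.3 to 26.6 CPM for BMF and 19.5 to 22.8 CPM for BCL2L11.

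Sums and ratios within the family are given as descriptions, with no test, on the same scale. The share of MCL1 in the 3 measured prosurvival members was 80.5% to 82.3% in the low glucose libraries and 82.4% to 83.6% in the high glucose libraries. BCL2 made up 0.739% to 1.34% over all libraries. The sum of BCL2, BCL2L1 and MCL1 was 92.0 ± 2.45 CPM per kilobase at low glucose and 119 ± 3.47 at high glucose. The sum of the 4 BH3-only members was 16.0 ± 0.488 and 17.2 ± 0.699, with BMF lower and BID and BCL2L11 higher at high glucose. The prosurvival to BH3-only ratio was 5.93, 5.47, 5.67 and 5.87 in the low glucose libraries and 6.77, 6.66, 7.08 and 7.11 in the high glucose libraries. The groups did not overlap. MCL1 makes up most of the numerator, and transcript ratios do not give protein ratios. Prosurvival and BH3-only genes outside the members were left out of these sums, and the share and ratio would differ with them. Among them, BCL2L2 was at 10.5 to 12.2 CPM per kilobase over all libraries, BAD at 12.1 to 20.5 and PMAIP1 at 6.11 to 8.10.

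Ratios of 2 pairs were chosen after their values were seen. BCL2L11 to BMF was 0.943, 0.752, 0.675 and 0.718 at low glucose and 1.80, 1.55, 1.87 and 1.59 at high glucose. BAK1 to BAX was 0.889, 0.990, 0.752 and 0.994 at low glucose and 1.54, 1.43, 1.46 and 1.57 at high glucose. Neither ratio overlapped between the groups. This follows from the 2 genes of each pair being separated in opposite directions, and it is not a further result. The sum of BAX and BAK1 did overlap, at 42.9 ± 1.63 CPM per kilobase at low glucose and 45.7 ± 5.56 at high glucose.

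**Figure D3:**
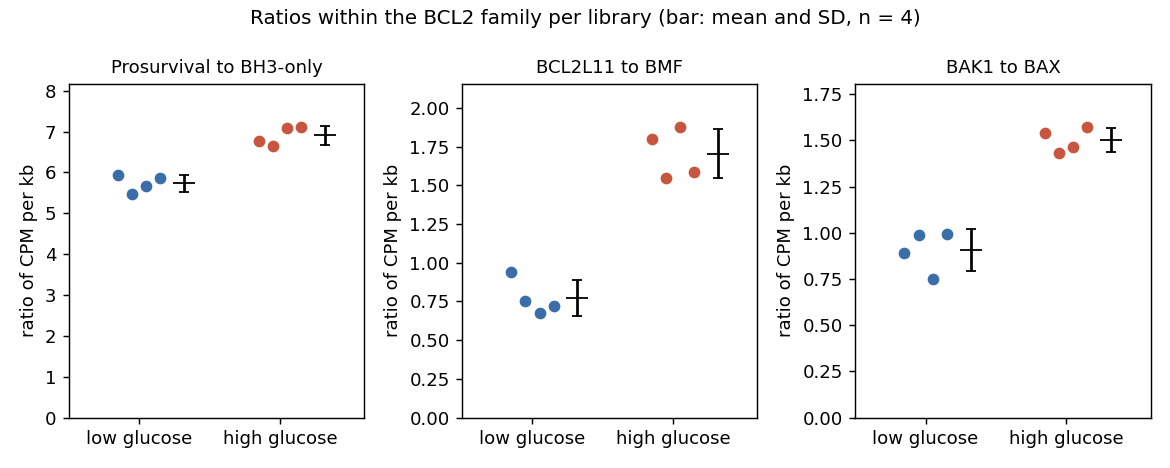
Each panel shows a ratio of CPM per kilobase, from 0 on the vertical axis, with 1 point per library and a bar for the mean and SD (n = 4). The prosurvival to BH3-only ratio was 5.74 ± 0.208 at low glucose and 6.90 ± 0.225 at high glucose, BCL2L11 to BMF 0.772 ± 0.118 and 1.70 ± 0.158, and BAK1 to BAX 0.906 ± 0.114 and 1.5 ± 0.0644.

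Other genes of the pathway were taken from 6 lists of 62 genes, of which 60 had a row. Of the 60, 19 were higher, 3 were lower and 38 did not pass. At a mean of at least 5 CPM, 20 of 51 listed genes passed, beside 66.9% of all genes at that level. By list, those that passed at that level were 2 of 10 relatives of the family and 5 of 8 apoptosome and caspase genes. They were 1 of 6 inhibitor of apoptosis genes and antagonists and 3 of 6 outer membrane partners and released factors. For binding and turnover they were 1 of 9, and for transcription factors 8 of 12. The median log2 change over the 60 was 0.11, beside -0.01 over all genes.

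Of 14 measured relatives of the family and proteins with a BH3-like motif, 3 were higher and 11 did not pass. HRK, a BH3-only gene, was at 1.25, 1.90, 1.61 and 1.75 CPM at low glucose and at 4.66, 3.83, 3.38 and 3.20 CPM at high glucose (log2 change 0.85 ± 0.12 SE; limma, adjusted p = 0.00108). MOAP1, which encodes a partner that helps activate BAX, was at 33.8, 30.9, 33.5 and 33.7 CPM and at 57.2, 53.7, 51.4 and 50.3 CPM (0.67 ± 0.05 SE; adjusted p = 3.61e-05). Both were separated between the groups. BNIP3L, a mitophagy receptor, changed by 0.10 ± 0.03 SE on the log2 scale (limma, adjusted p = 0.0402), and its call was lost in 8 of 15 alternatives, 6 of which each left out 1 library (any but low glucose replicate 1 and high glucose replicate 2).

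The relatives that did not pass include the BH3-only genes PMAIP1, BBC3 and BAD. PMAIP1, which encodes NOXA, a ligand of MCL1, had a log2 change of 0.14 (95% interval -0.05 to 0.33). BBC3, which encodes PUMA and rested on 12 to 29 estimated reads per library, had -0.21 (-0.62 to 0.20) and BAD had 0.18 (-0.16 to 0.53). Leaving out 1 library moved both, BAD to 0.05 without high glucose replicate 1 and BBC3 to -0.12 without low glucose replicate 1 and to -0.11 without high glucose replicate 3. The prosurvival gene BCL2L2 was at 0.07 (-0.03 to 0.17). For the others, the log2 changes were 0.33 for BCL2L12 (95% interval -0.05 to 0.72, and 0.20 without high glucose replicate 1), -0.11 for BCL2L13, -0.01 for BOK, 0.14 for BNIP3 and -0.02 for BECN1, the last being the autophagy gene that BCL2 proteins bind. BCL2L10 rested on 1 to 9 estimated reads per library, and its log2 change of 0.38 (95% interval 0.06 to 0.70) did not pass (limma, adjusted p = 0.0540). BCL2L14 was listed at 0 in every library. BCL2L2, BAD and BECN1 share 590, 314 and 795 exon bases with neighbouring genes, whose reads their values may include.

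Downstream of the mitochondrion, 3 of 9 genes of the apoptosome and caspases were higher and 2 lower. CYCS, which encodes cytochrome c, went from 315 ± 9.14 to 488 ± 43.4 CPM (SD, n = 4; log2 change 0.63 ± 0.06 SE; limma, adjusted p = 0.000183). CASP8, the initiator that cleaves BID, went from 40.6 ± 0.609 to 49.7 ± 3.65 CPM (0.28 ± 0.05 SE; adjusted p = 0.00267), and the executioner CASP6 fell from 14.4 ± 0.549 to 8.97 ± 0.945 CPM (-0.63 ± 0.07 SE; adjusted p = 0.000346). Of 8 inhibitor of apoptosis genes and their antagonists, 2 were higher and 6 did not pass. BIRC3, which encodes cIAP2, went from 0.604 ± 0.271 to 2.27 ± 0.248 CPM (log2 change 1.04 ± 0.13 SE; limma, adjusted p = 0.000547), and BIRC5, the mitotic gene survivin, from 105 ± 5.97 to 150 ± 15.9 CPM (0.51 ± 0.08 SE; adjusted p = 0.00156). XIAP, the direct caspase inhibitor, had a log2 change of 0.20 that did not pass (limma, adjusted p = 0.0601). It passed in 5 of 15 alternatives, among them the fit without high glucose replicate 1, where the change was 0.27 (adjusted p = 0.00137).

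Among 7 outer membrane partners and released factors, 2 were higher and 1 lower. Of the voltage-dependent channels, VDAC1 was higher and VDAC3 lower, with log2 changes of 0.32 ± 0.04 SE and -0.37 ± 0.05 SE (limma, adjusted p = 0.000726 and 0.000965). VDAC2, named here after its values were seen, was at 0.12 and did not pass (adjusted p = 0.157). AIFM1, the mitochondrial flavoprotein AIF, was at 0.33 ± 0.03 SE (adjusted p = 0.000178). Of 9 genes for binding and turnover of members, DYNLL2 was the only 1 that passed. It encodes a dynein light chain that binds BMF, and it went from 96.7, 95.7, 94.5 and 87.8 CPM in the low glucose libraries to 177, 182, 183 and 183 CPM at high glucose (0.94 ± 0.03 SE; limma, adjusted p = 2.00e-06). DYNLL2 and BMF therefore moved in opposite directions. The ubiquitin ligase genes MARCHF5 and FBXW7, which act on MCL1, had log2 changes of 0.10 and 0.17 and did not pass (adjusted p = 0.0818 and 0.0834).

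Of 13 transcription factors known to act on member genes, 8 were higher and 5 did not pass. At a mean of at least 5 CPM, 8 of 12 passed, which is near the 66.9% of all genes at that level. E2F1 went from 27.3 ± 0.778 to 55.5 ± 5.48 CPM (SD, n = 4; log2 change 0.99 ± 0.07 SE; limma, adjusted p = 2.97e-05). NFKB1, a subunit of NF-kappaB, went from 41.6 ± 1.70 to 65.3 ± 2.29 CPM (0.64 ± 0.04 SE; adjusted p = 1.53e-05), and STAT3 from 112 ± 3.36 to 141 ± 8.05 CPM (0.33 ± 0.04 SE; adjusted p = 0.000814). The log2 changes of the 13 ran from -0.05 to 0.99.

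**Figure D4:**
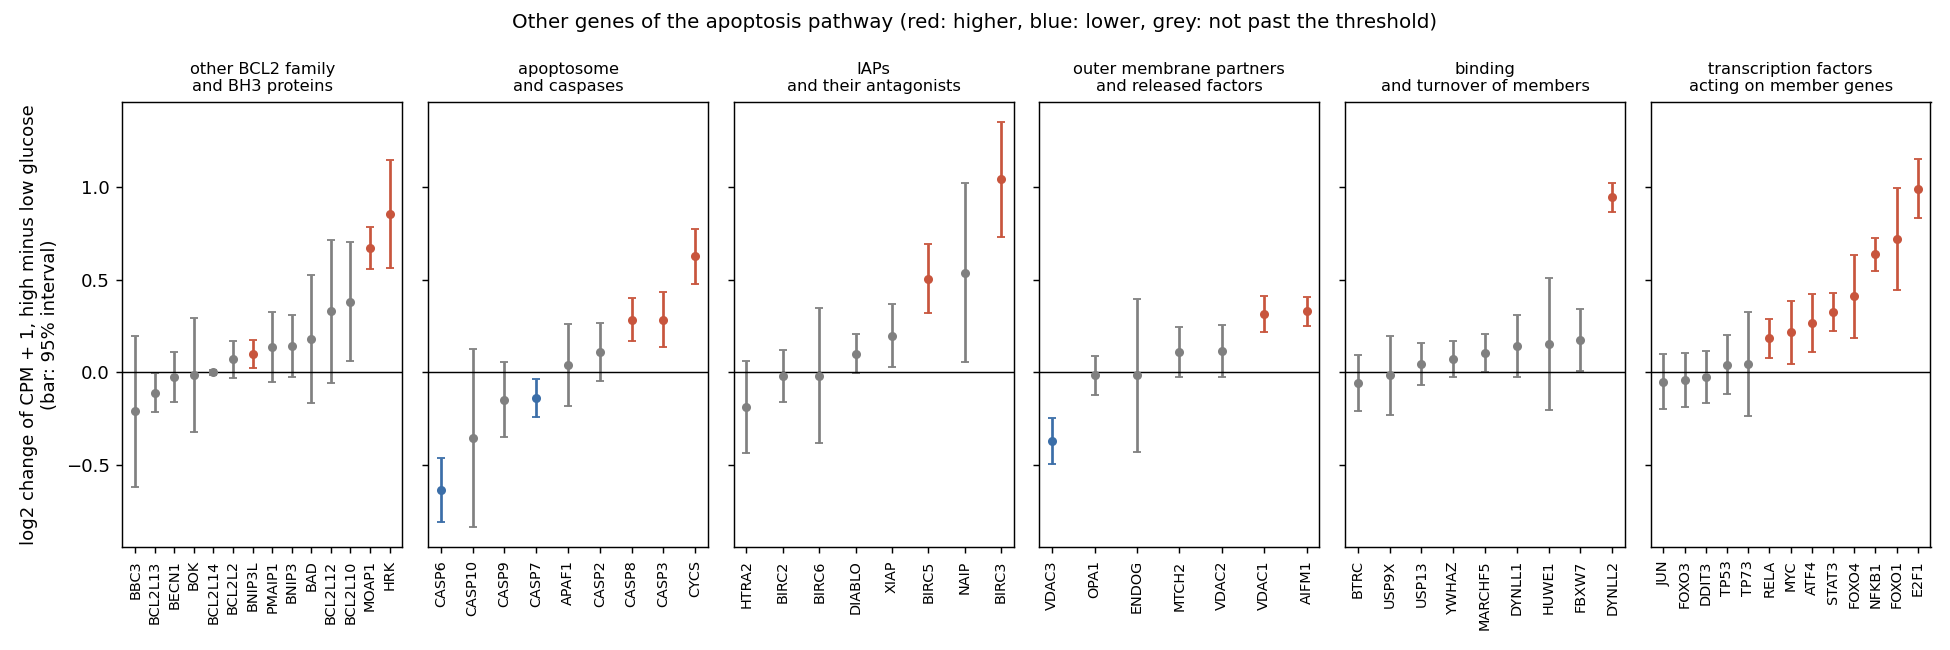
Each panel shows 1 list of pathway genes, with the log2 change of CPM + 1, high minus low glucose, on the vertical axis, points for the estimate and bars for its 95% interval. Of the 60 genes, 19 are higher (red), 3 are lower (blue) and 38 did not pass (grey), and BIRC3, E2F1, DYNLL2 and HRK lie highest.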

How the data were processed

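RNA from 8 libraries of MDA-MB-157 cells (4 low glucose, 4 high glucose, grouped by the labels) was analysed. The authors deposited 1 table of CPM, scaled by the authors with edgeR's TMM factors. The labels name the hg38 build, whereas the study's methods, written for tumors, name hg19; the counter and its use of strand are not given in the sources used here. Column names matched the titles of the samples, 18 pseudoautosomal Y copies were left out, and 21059 genes were tested. Low values lay on steps of about 1 read, but only 73.0% to 74.7% of values below 50 reads were whole within 0.02 reads, so whole reads were not recovered and no count model was used. Depth was estimated as the column sum divided by the step, and depths and floors cover counting error only.

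Genes were compared with limma 3.58.1 in R 4.3.3 (2-sided; lmFit without covariates, then eBayes with its trend option) on log2(CPM + 1), with Benjamini-Hochberg adjustment over all genes and a threshold of 0.05. Fold changes are on that scale, which understates changes of low genes. Transcript lengths, overlaps and shared 31-base words came from GENCODE 44 on GRCh37, and positions and promoters from RefSeq on GRCh38.p14. The fit was run on simulated data with independent noise in each gene and library. Those data lack the length trend of high glucose replicate 1, so they do not test its effect on the calls. The simulated data also had far fewer changed genes than passed here, so they do not show how the calls behave when much of the table changes. The members and gene lists were chosen with earlier results of these data known. All members were named, with, in each list, the 3 genes of smallest adjusted p and every further relative above 1 CPM. Alternatives were a pseudocount of 0.1, genes with a mean of at least 1 CPM, median-of-ratios scaling, equal totals, a replicate block, no mean-variance trend, removal of a length trend within groups, and leaving out each library.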

Additional observations from a re-analysis of the deposited data

Results flagged for a closer look

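Of 90 groups of 4 libraries examined over the 36 named genes and the ratios, 3 had 1 library set apart from the other 3 by a gap that took up most of the range of the group. Chance alone gives about 1 in 20 such groups, or 4.5 of 90. None concerned a measured member of the family. MOAP1 at low glucose had a gap of 0.899 of the range, with replicate 2 lowest at 30.9 CPM. AIFM1 at low glucose had a gap of 0.884, with replicate 4 lowest at 83.3 CPM. MARCHF5 at low glucose had a gap of 0.846, with replicate 3 highest at 44.2 CPM.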

How the results depend on the processing

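The number of members past the threshold was 6 or 7 under every alternative, and BAX was the member that was lost each time it was 6. BCL2L1, MCL1, BAK1, BID, BMF and BCL2L11 passed in all 15 alternatives each, with log2 changes of 0.22 to 0.29, 0.38 to 0.44, 0.35 to 0.47, 0.28 to 0.39, -0.72 to -0.63 and 0.40 to 0.47. Removing the length trend within groups keeps each group mean, so it cannot change a log2 change and acts on the spread only. The replicate block, the filter at 1 CPM and the fit without the mean-variance trend also left the log2 changes as they were. These alternatives therefore bear on the p-values and not on the estimates. The number of listed genes past the threshold was 19 to 23 when 1 library was left out and 21 to 29 otherwise. Samples of the same replicate number did not deviate together (correlations of -0.04 to 0.07), so the numbers were not taken to pair the samples. With the replicate block, 6 members and 21 listed genes passed, and BAX had an adjusted p of 0.0608 from limma.

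Without division by transcript length, the MCL1 share was 85.9% at low glucose and 87.4% at high glucose, and the prosurvival to BH3-only ratio at high glucose was 7.33. The sign of 3 changes that never passed turned. BIK was at -0.033 without low glucose replicate 1, and its log2 change ran from -0.033 to 0.18 over the fits that left out 1 library. BOK was at 0.027 with median-of-ratios scaling and 0.0097 with equal totals, and BECN1 at 0.018 and 0.00037. Over the fits that left out 1 library, BOK ran from -0.083 to 0.11 and BECN1 from -0.056 to 0.019. BIK has no value among genes with a mean of at least 1 CPM. Among the other named genes, BCL2L12 passed with the length trend removed, BCL2L13 without low glucose replicate 1, BNIP3 without high glucose replicate 3, and XIAP, FBXW7 and MARCHF5 in 5, 3 and 3 alternatives. The causes were not tested. BIK rested on 6 to 16 reads per library, which limits what its value can show.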
